A study of Mus musculus with 3 samples.

Results

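The cells described here are epithelial cells of the postnatal day 7 (P7) cochlea that carried mRNA of Otoa, Otog or Tecta, genes of the greater epithelial ridge and of the interdental cells. They were chosen from the raw counts of unique molecular identifiers (UMIs). A cell needed at least 500 detected genes and at most 20% mitochondrial UMIs. It also needed at least 1 UMI of Epcam or Cdh1, at least 2 UMIs of Otoa, Otog and Tecta together, and no UMI of Prox1, Fgfr3, Pou4f3, Slc26a4 or Cdh5. These conditions held for 211 of 7262 P7 cells, or 2.91% (exact 95% binomial interval 2.53 to 3.32), among 13637 cells that passed the cell filter in the series. Within the set, 142 cells had at least 1 UMI of Otoa and are called Otoa positive, and 69 had none and are called Otoa negative.

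The study profiled whole cochleae of wild-type C57BL/6J mice by droplet-based single-cell sequencing of mRNA 3' ends. It comprised 1 library of P7 and 2 libraries of embryonic day 15 (E15). Both ages were dissociated with papain and thermolysin and sorted by flow cytometry to remove debris. How many animals were pooled, and whether the E15 libraries came from separate litters, is not given in the sources used here. A p-value below therefore measures only the spread between these libraries, which may be technical.

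The cochlear duct is lined medially by the greater epithelial ridge, a transient column of tall cells next to the inner hair cells, and by the interdental cells on the spiral limbus. Both secrete the tectorial membrane, the gel of collagens and tectorins that couples sound to the hair bundles, and interdental cells anchor it to the limbus through otoancorin, the product of Otoa. Before hearing begins, ridge cells release ATP, and purinergic receptors and chloride and potassium fluxes turn each release into a burst of activity in nearby hair cells and nerve fibres.

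The P7 library held 8141 barcodes and 93829443 UMIs, and the E15 libraries held 46530036 and 44304364 UMIs. Between 3 and 6 cell barcodes were shared by any pair of libraries. Levels are given in CPM: a gene's UMIs, summed over the cells of a group, per 1000000 UMIs of that group. Intervals on a level are exact 95% Poisson intervals and, like those on shares, cover counting error only, since cells of 1 library are not replicates. The P7 library, its age and the older software version named in its file header cannot be told apart.

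The members were deep and mostly rich in epithelial mRNA. Their median was 13089 UMIs and 3904 genes per cell, and the median count of Epcam and Cdh1 together was 36 UMIs, with 185 cells at 10 or more. Otoa negative and Otoa positive cells had like depth, with medians of 13024 and 13263.5 UMIs. Of the 309 epithelial cells with enough Otoa, Otog and Tecta UMIs, 58 were barred by Slc26a4, 30 by Fgfr3, 16 by Prox1, 15 by Cdh5 and 0 by Pou4f3. The 43 members at the limit of 2 ridge UMIs had 6677 CPM of Tectb and 75.3 CPM of the fibrocyte gene Otos. The 104 cells just outside it, with 1 ridge UMI, had 3562 CPM of Tectb and 10664.5 CPM of Otos.

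The 3 ridge genes met in few cells together. Otoa alone was seen in 42 cells, Otog, which codes for otogelin of the acellular membranes, in 33, and Tecta, which codes for alpha-tectorin, in 11. Otoa and Otog occurred without Tecta in 56 cells, and all 3 genes were seen in 32. These values chose the cells and are given as a description.

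Some markers of the label were seen in most members and others in few. Epyc, a small leucine-rich proteoglycan, and Tectb, which codes for beta-tectorin, were each seen in 149 members (70.6%), and Dcn, a related proteoglycan, in 178. Dcn was higher in other P7 cells than in the set, as given below. Of the interdental list, Calb1 was seen in 31 members. Matn4 was seen in 16.9% of Otoa positive and 17.4% of Otoa negative members, and Ceacam16 in few. Crabp1, from the ridge marker list, had 0 UMIs. Beside these, 13 members carried 45 to 411 UMIs of Oc90, the major otoconial protein gene of the roof epithelium, while no other member had more than 1. Of these 13 cells, 12 also carried at least 5 UMIs of Vmo1 and 12 carried Otx2, so they had the markers of Reissner's membrane and roof epithelium. All 13 were Otoa positive. Another 2 members had 2182 and 496 UMIs of Otos, a gene of cochlear fibrocytes. Results that rest on these 15 cells are given with and without them.

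Of the markers of other cell types, the 6 macrophage markers summed to 18.5 CPM against 19965 in macrophages, 2 of the 5 endothelial markers were at 0, Cdh5 being barred by the rule, and the cycling markers summed to 6.16 CPM. The 10 hair cell markers summed to 150.5 CPM, with Pou4f3 barred. The 10 mesenchymal markers summed to 2662 CPM, against 5011 CPM in macrophages of the same library, which should not express them, and 20243 CPM in cells with no Epcam or Cdh1 UMI. None of the mesenchymal markers was at 0. They were uneven within the set, each being highest in subcluster 7, as given with the subclusters below. The 10 supporting cell markers, with Prox1 and Fgfr3 barred, summed to 2211 CPM, against 3759 CPM in supporting-type cells and 557.6 CPM in all other P7 cells. The 5 Reissner and roof markers summed to 1499 CPM, 2141 CPM in Otoa positive and 37.3 CPM in Otoa negative members, against 468.5 CPM in all other P7 cells.

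High Otoa and high Tectb marked different members at P7. Of the 37 cells with at least 5 Otoa UMIs, 8 had any Tectb UMI, and as a group they stood at 2464 CPM of Tectb and 8840 CPM of Epyc. Of the 51 cells with exactly 1 Otoa UMI, 46 had Tectb, at 8465 CPM, with 3534 CPM of Epyc. Of the 54 cells with 2 to 4 Otoa UMIs, 10 of them Oc90-rich, 41 had Tectb, at 9183 CPM, with 2146 CPM of Epyc. Isl1, a LIM homeodomain transcription factor of the developing cochlear floor, stood at 63.2 CPM in cells with at least 5 Otoa UMIs, 442.9 CPM in those with 2 to 4 and 637.6 CPM in those with 1. Gata3, a zinc finger factor needed for cochlear development, stood at 226.8, 630.6 and 1095 CPM in the same order. The median depth was 18534 UMIs in cells with at least 5 Otoa UMIs, 10760.5 UMIs in those with 2 to 4 and 12855 UMIs in those with 1. These groups were formed after the values were seen and are a description.

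**Figure D1:**
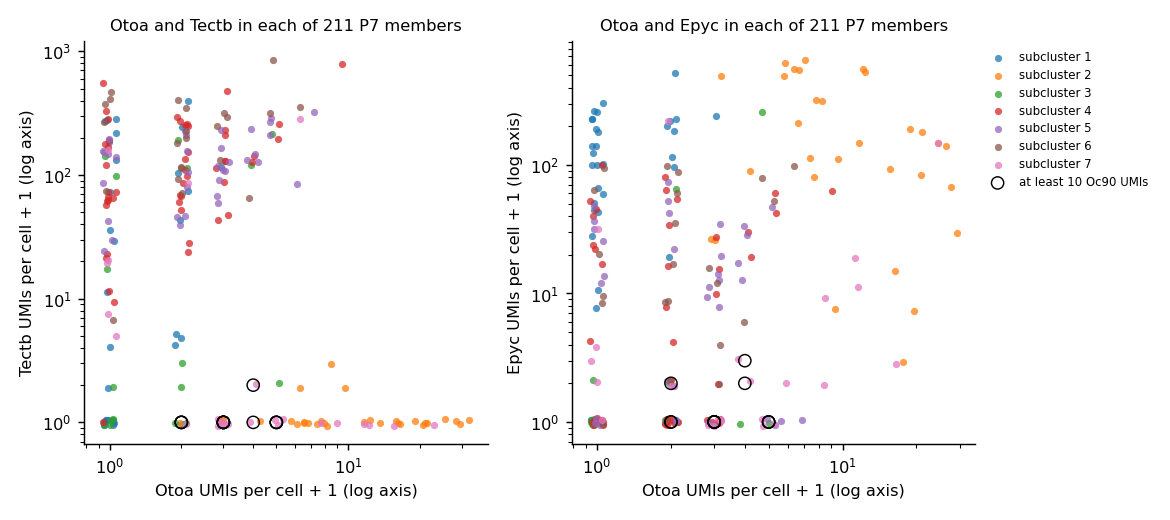
Each point is 1 of the 211 P7 members, placed by its Otoa UMIs plus 1 (x, log axis) and its Tectb UMIs plus 1 (left, log axis) or Epyc UMIs plus 1 (right, log axis), with a small random shift to separate points; colours are subclusters and open circles are cells with at least 10 Oc90 UMIs. The cells with the most Otoa sit at or near 0 Tectb, and most of them carry Epyc.

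Clustering of the members alone gave 7 subclusters, which are left unnamed and described by their leading genes without a test. Subcluster 2 held 31 cells, all of them Otoa positive, at 664.8 CPM of Otoa, with 1 Oc90-rich cell among them. It carried 12743 CPM of Epyc and 7.60 CPM of Tectb, and Hamp2, Degs2, Tdrd12 and Cntn1 led it. Anxa1 came first by fold through a single cell. Subclusters 4, 5 and 6 (49, 35 and 23 cells) held the Tectb-rich members, with 11314, 14466 and 18228 CPM of Tectb, and had Otoa at 84.4, 184.6 and 101.9 CPM. Foxq1 and Gldn were among the leading genes of subcluster 4, Klk8 and Krtdap of subcluster 5, and Rnf182 and Rbm24 of subcluster 6. Dct, a gene of melanocytes, also led subcluster 4, with 97.1% of its UMIs in 1 cell.

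Subcluster 1 (32 cells) was led by Bmp4, Fam159b and Apoc1, with 1368 CPM of Gata3 and 9424 CPM of Clu, and 31.2% of it was Otoa positive. Bmp4 and Apoc1 were each seen in only 18.75% of its cells, and 1 cell held 79.8% of its Apoc1 UMIs. Fam159b was seen in 62.5% of its cells and Npnt, also among its leading genes, in 90.6%. Subcluster 3 (17 cells) was led by Prdm12 and Lgr6 and had the highest Ano1 of the 7, at 1067 CPM. Subcluster 7 (24 cells) held 11 of the Oc90-rich cells and both Otos-rich cells, and 11 of its cells were among those with the highest doublet scores. Vmo1 stood at 6107 CPM in it and at 0 to 61.3 CPM in the others. The subclusters thus crossed the Otoa split: Otoa positive cells made up 52.9 to 79.2% of subclusters 3 to 7.

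**Figure D2:**
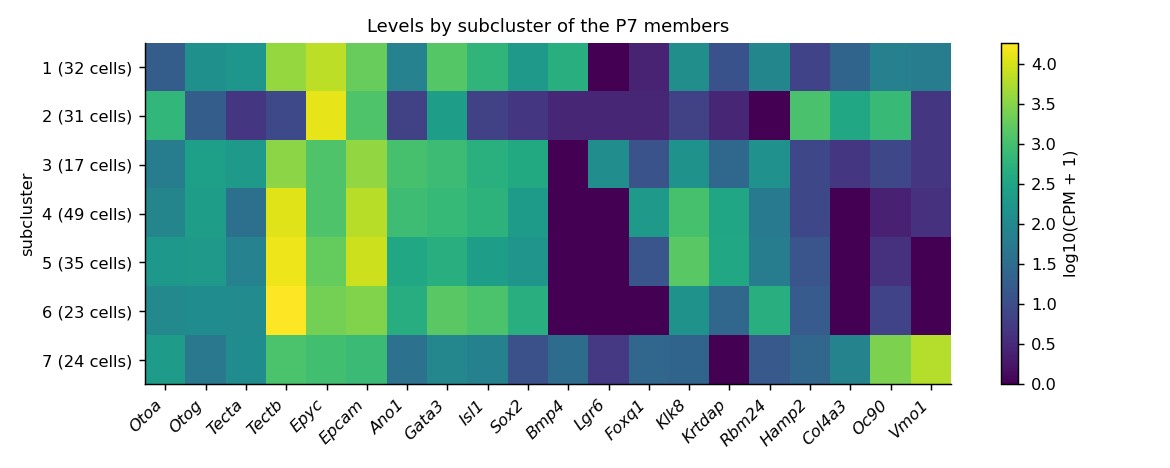
Colour gives log10 of CPM plus 1 for 20 genes (x) in the 7 subclusters of the P7 members (y, with the number of cells). Tectb is low in subcluster 2, where Otoa, Epyc and Hamp2 are high, and Oc90 and Vmo1 are highest in subcluster 7.

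Sequence upstream of 3 genes is shown because they carry the patterns of this set: Otoa splits it, Tectb runs against high Otoa, and Hey2 was lower in the Otoa positive cells of every library. The 250 bases before the start are from RefSeq on GRCm38.p6, gene strand, at chr7:121083174-121083423 (+ strand) for Otoa, chr19:55180476-55180725 (+ strand) for Tectb and chr10:30842784-30843033 (- strand) for Hey2. Capitals mark a match to AGATAA, the GATA factor motif, or to GTGGGAA, the motif of the Notch effector RBPJ, on either strand.
Otoa: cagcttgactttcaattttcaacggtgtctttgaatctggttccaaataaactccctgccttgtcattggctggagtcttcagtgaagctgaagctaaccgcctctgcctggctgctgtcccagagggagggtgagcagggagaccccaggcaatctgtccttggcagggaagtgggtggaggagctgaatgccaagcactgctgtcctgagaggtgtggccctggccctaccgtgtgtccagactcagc
Tectb: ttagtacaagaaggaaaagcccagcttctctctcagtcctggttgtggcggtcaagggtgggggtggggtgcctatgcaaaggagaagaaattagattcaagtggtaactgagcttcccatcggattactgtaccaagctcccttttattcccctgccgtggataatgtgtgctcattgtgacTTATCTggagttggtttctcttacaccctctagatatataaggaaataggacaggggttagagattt
Hey2: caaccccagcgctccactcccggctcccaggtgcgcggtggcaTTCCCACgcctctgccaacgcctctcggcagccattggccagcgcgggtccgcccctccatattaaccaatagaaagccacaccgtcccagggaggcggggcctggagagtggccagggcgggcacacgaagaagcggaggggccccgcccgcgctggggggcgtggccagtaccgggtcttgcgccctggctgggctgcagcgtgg
The Tectb window held TTATCT, the reverse complement of AGATAA, starting 67 bases before the transcript start, and the Hey2 window held TTCCCAC, the reverse complement of GTGGGAA, starting 207 bases before it. Of 32851 windows of this length, 9.99% held AGATAA and 5.42% held GTGGGAA on either strand, and neither motif contains the other. The Otoa window held neither, and none of the 3 held TATAAA, which 12.4% of windows held. A match is a description of the letters and not a binding site. Epyc, Bmp4, Isl1, Gata3, Gata2, Fabp7 and Mia were also matched in the RefSeq table, 10 of 15 genes looked up in all, and Hes1, Hey1, Fst, Clu and Foxq1 were not. Both windows of Epyc, a gene high in the Otoa-rich cells, also held the GATA motif, starting 134 and 135 bases before the start. The windows of Bmp4, Isl1, Gata3, Gata2, Fabp7 and Mia held none of these motifs.

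The set was next compared with other cells of the P7 library, where there is no replicate and no test. Among the 15 genes with the largest fold over all other P7 cells at 100 CPM or more were Krtdap, Hamp2, Tectb, Klk8, Cpa6, Elf3, Tmprss9, Plet1, Sfn, Cldn23, Sh2d6, Spock1, Isl1 and Mia. The set had been chosen on the epithelial genes Epcam and Cdh1. Elf3 is an epithelial transcription factor, Cldn23 a claudin, Sfn an epithelial 14-3-3 protein, and Klk8 and Tmprss9 serine proteases. Krtdap stood at 111 CPM (interval 100.2 to 123.5) against 1.44 CPM in all other cells. Klk8 stood at 421 CPM (399 to 444) against 13.5 CPM. Mia, a secreted protein of cartilage and inner ear, reached 9197 CPM and was seen in 98.1% of members.

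Supporting-type cells (at least 2 UMIs of Prox1 and Fgfr3, 50 cells) and Slc26a4-type cells (146 cells) were the nearest epithelia. The supporting-type sum also held 13970 CPM of the 5 glial markers, against 613 CPM in the set, and their part in its levels was not tested. Tectb stood at 6809 CPM (6720 to 6900) in the set, 1548 CPM (1490 to 1608) in supporting-type cells and 308 CPM (288 to 328) in Slc26a4-type cells. Ano1, the calcium-gated chloride channel of the ridge, stood at 366 CPM (345 to 387), 1.16 CPM (0.140 to 4.18) and 19.3 CPM (14.7 to 24.8). It was seen in 66.8% of members and in 1.83% of macrophages (medians of 13089 and 6714.5 UMIs). With each cell thinned to 4000 UMIs, 54.5% of members and 0.909% of macrophages had it. The set was high in Ano1 and low in the tectorial gene Umodl1, which had 0 UMIs against 66.6 CPM in supporting-type cells. Ano1 was uneven within the set. It was at 342 to 1067 CPM in subclusters 3 to 6, 76.6 CPM in subcluster 1 and 39.4 CPM in subcluster 7. In the Otoa-rich subcluster 2 it was at 5.70 CPM, in 6.45% of cells.

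P2ry1, the ATP receptor upstream of Ano1, was at 55.4 CPM (47.6 to 64.1) in the set, 2.32 CPM in supporting-type cells and 18.6 CPM in Slc26a4-type cells. The ATP-gated channel P2rx2 was at 142 CPM, 79.9 CPM and 75.4 CPM in the same order. Within the set P2ry1 and Ano1 were not highest in the same members. P2ry1 was highest in subcluster 2, at 138.7 CPM in 74.2% of cells, where Ano1 was at 5.70 CPM. In the Ano1-rich subclusters 3 to 6 P2ry1 was at 27.2 to 70.4 CPM. Gjb2 and Gjb6, the connexins 26 and 30 that join supporting cells into a syncytium, were at 679.6 and 173.6 CPM in the set and at 235.8 and 67.2 CPM in supporting-type cells. Cldn9, a tight junction claudin, was at 967 CPM and was seen in 96.7% of members. Collagen II did not set the members apart: Col2a1 was at 2356 CPM in the set, 2441 CPM in supporting-type cells, 4538 CPM in cells without Epcam or Cdh1 and 1196 CPM in macrophages.

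**Figure D3:**
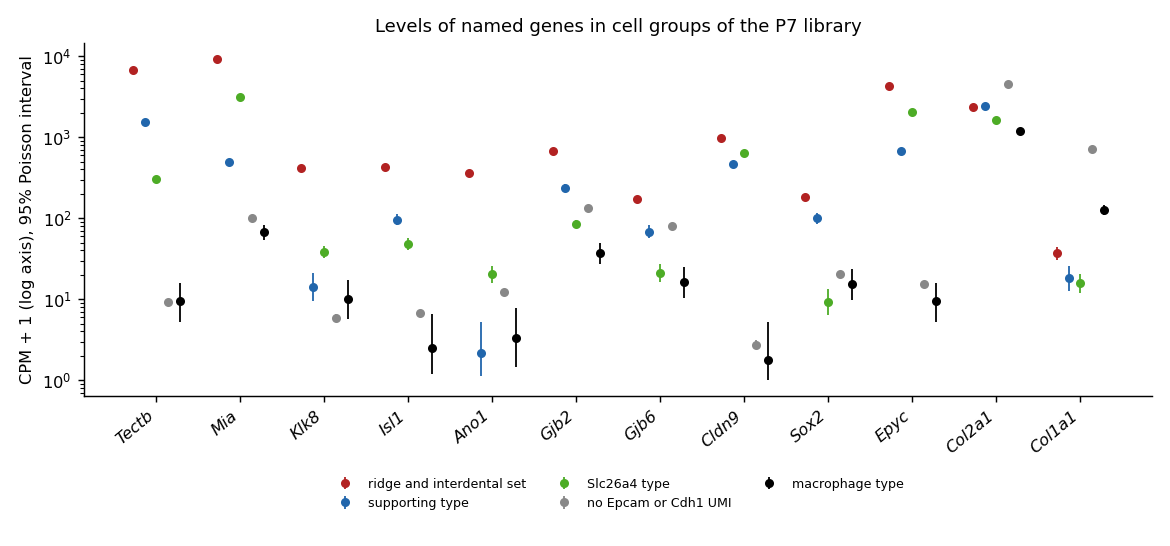
Levels in CPM plus 1 (log axis) of 12 genes in 5 cell groups of the P7 library, with exact 95% Poisson intervals as bars. The set lies above supporting-type and Slc26a4-type cells for Tectb, Ano1 and Gjb2, and below the cells without Epcam or Cdh1 for Col2a1 and Col1a1.

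Otoa positive and Otoa negative members were then compared at P7, as values of 1 library with no test. A gene was counted where its fold was at least 2, the higher level at least 50 CPM and the Poisson intervals apart. Of 3528 genes measured at that level, 100 were higher in Otoa positive cells (2.83% of genes measured) and 68 lower (1.93%). The largest folds up were those of Oc90, Crhbp, Pcp4, Ttr, Ifi27l2a, Anxa1, Vmo1, Hamp2, Dkk2, Tmem132c, Dapl1 and Sostdc1. Without the 15 Oc90-rich and Otos-rich cells, 71 genes were higher and 64 lower. Of the 12 genes, Oc90, Crhbp, Ttr, Ifi27l2a, Anxa1, Vmo1, Dkk2 and Dapl1 then no longer passed, with Ifi27l2a still at a log2 difference of 4.93 (5.63 with those cells), and Vmo1 and Dkk2 changed sign (log2 difference -3.37 for each). In Anxa1, 1 cell held 94.9% of the UMIs.

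The genes that stood without those cells were Pcp4, Hamp2, Tmem132c and Sostdc1. Pcp4, a calmodulin regulator that is also on the hair cell marker list, was at 116 CPM in Otoa positive and 1.01 CPM in Otoa negative cells, and 23.2% and 1.45% of cells carried it. Hamp2, a hepcidin gene, was at 261 and 7.06 CPM. Sostdc1, a secreted BMP and Wnt antagonist, was at 88.1 and 4.03 CPM. Hamp2 and Tmem132c were at 1073 and 222.2 CPM in subcluster 2, and Pcp4 was at 224 CPM there and 288 CPM in subcluster 7. Within the 132 cells that had at least 10 Tectb UMIs, 15 genes were higher and 46 lower in Otoa positive cells.

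The largest folds down were those of Bmp4, Cytl1, Fzd9, Fbln2, Otos, Apoc1, St3gal4, Nupr1, Fam159b, Ntrk2, Trf and Agr3. Bmp4, a growth factor of the lateral cochlear floor, was at 8.86 CPM in Otoa positive and 316 CPM in Otoa negative cells, but it was seen in only 8 of 142 and 6 of 69 cells, and 1 cell held 30.0% of its UMIs. Fzd9, a Wnt receptor, was at 7.97 and 81.7 CPM and was seen in 5.63% and 18.8% of cells. Otos, Cytl1 and Apoc1 had 97.0%, 82.5% and 80.7% of their UMIs in 1 cell each. Hey1 and Hes1 were counted lower among 6 Notch genes measured, and Gata2 among 14 transcription factors. No gene was counted among 10 tectorial, 5 ATP and ion transport and 16 secretory pathway genes measured. The median log2 difference was 0.01 in the tectorial list, 0.07 in the secretory list and -0.02 over all genes measured.

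To look for Otoa differences shared by P7 and E15, the same rule was applied to E15. It gave 131 members in E15 replicate 1, of which 21 were Otoa positive (16.03%, interval 10.2 to 23.5), and 143 in E15 replicate 2, of which 23 were positive (16.1%, 10.5 to 23.1). The P7 share was 67.3% (60.5 to 73.6). E15 members carried mostly Tecta and Otog: 96 of 131 and 108 of 143 had Tecta alone or with Otog and no Otoa. Oc90-rich cells were present at E15 too, 8 and 14 of them, and made up more of the Otoa positive class. They were 3 of 21 and 7 of 23 Otoa positive cells, against 5 of 110 and 7 of 120 Otoa negative cells. UMIs of each Otoa class were summed by library, and the 6 sums were tested with edgeR's quasi-likelihood test with the library as a block. Genes of the rule were left out.

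Over 9476 genes tested, 74 were higher in Otoa positive cells (0.781% of genes tested) and 43 lower (0.454%), 1.23% in all, at an adjusted p under 0.05. All 74 were higher in 3 of 3 libraries and 39 of the 43 were lower in 3 of 3, in the same sums that gave the calls. P7 is among these libraries, and 29 of the 74 and 20 of the 43 also passed the fold rule used at P7. Without the Oc90-rich and Otos-rich cells, 34 were higher and 20 lower, of which 31 and 14 were among the first calls. The Otoa positive E15 sums then held 18 and 16 cells, under the least number of 20 set beforehand for this test. DESeq2 called 25 higher and 14 lower. Genes named from this test outside the P7 rule and the lists were chosen after their values were seen. The calls for genes named in the next paragraphs held without those cells unless stated.

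Epyc was higher in Otoa positive cells over the 3 libraries, though by 1.42-fold at P7, short of the fold of 2 used there. Its levels in Otoa positive and negative cells were 4753 and 3357 CPM at P7, 155 and 74.2 CPM in E15 replicate 1, and 294 and 65.6 CPM in E15 replicate 2. Otoa positive cells were higher in every library, and the log2 difference was 1.14 ± 0.22 (SE; edgeR adjusted p = 0.0236; 0.0724 without E15 replicate 1). The difference was smaller at P7 than at E15 by 1.08 ± 0.26 on the log2 scale (edgeR adjusted p = 0.0405, and 0.0768 without the Oc90-rich and Otos-rich cells). It was the only call among 12 tectorial genes tested, whose median difference was 0.10 against 0.00 over all genes. Smoc1, a matrix protein that modulates BMP signals, was at 30.1 and 7.06 CPM at P7, 52.7 and 17.2 CPM in E15 replicate 1, and 70.2 and 17.1 CPM in E15 replicate 2 (1.87 ± 0.27). Ecrg4, a secreted peptide precursor listed at P7 as 1500015O10Rik, was at 4504 and 1899 CPM at P7 and differed by 1.76 ± 0.16. Foxq1, a forkhead transcription factor, differed by 1.76 ± 0.19, and Krt19, a simple epithelial keratin and the only call among 19 junction and keratin genes, by 1.41 ± 0.27.

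Bmp4 was the 1 gene called among 14 FGF and BMP genes tested, and it was lower in Otoa positive cells. It was at 8.86 and 316 CPM at P7, 11.1 and 101 CPM in E15 replicate 1, and 0 and 16.4 CPM in E15 replicate 2, in Otoa positive and negative cells. Its fitted log2 difference was -4.82 ± 0.32 (edgeR adjusted p = 2e-05), with few cells behind it in every library: 8, 1 and 0 Otoa positive cells and 6, 15 and 8 Otoa negative cells. As 1 sum held no UMI, the fitted value depends on the prior count. Of 12 Notch genes tested, 3 were lower (2 without the Oc90-rich and Otos-rich cells) and 0 higher (list median -0.69). Hes1, a repressor induced by Notch, was at 65.1 and 185 CPM at P7, 13.9 and 38.4 CPM in E15 replicate 1, and 18.1 and 35.6 CPM in E15 replicate 2 (-1.40 ± 0.20; edgeR adjusted p = 0.00478, and 0.124 without the P7 library). Hey2, whose upstream bases are printed above, was at 4.43 and 25.2 CPM, 13.9 and 66.9 CPM, and 6.79 and 61.3 CPM in the same order (-2.59 ± 0.31). Hey1 (-1.39 ± 0.25) and Gata2 (-1.56 ± 0.30) were lower as well, but not without the Oc90-rich and Otos-rich cells.

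Fabp7, a fatty acid carrier of neural and glial precursors, was at 198 and 791 CPM at P7 and differed by -2.49 ± 0.29. Clu, a secreted chaperone, differed by -2.19 ± 0.35. Cdkn1b, the cell cycle inhibitor p27Kip1 that marks the postmitotic sensory domain, differed by -1.69 ± 0.28, the only call among 6 arrest genes. Hmga2, a chromatin protein of fetal cells, was at 158 and 641 CPM and at 54.3 and 598 CPM in the E15 libraries, and at 2.21 and 25.2 CPM at P7 (-2.77 ± 0.25). The call rule asks more of an Otoa negative cell, which must hold 2 UMIs of Otog and Tecta. Asked of both classes alike, that condition left 76 of the 142 Otoa positive P7 cells and gave 31 genes higher and 30 lower. Bmp4, Hes1, Hey2, Fabp7, Clu, Hmga2, Smoc1 and Foxq1 stayed called, and Epyc, Krt19 and Cdkn1b did not.

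The Otoa difference itself differed between the ages for 131 of 9476 genes (1.38% of genes tested) by an interaction term in the same edgeR model, and for 36 without the Oc90-rich and Otos-rich cells. This test was added after the data were seen. Tectb was at 6785 CPM in Otoa positive and 6864 CPM in Otoa negative cells at P7, but at 144 and 893 CPM in E15 replicate 1 and 47.5 and 698 CPM in E15 replicate 2. At E15 the Otoa positive cells were thus poor in Tectb, with 8 of 21 and 1 of 23 carrying it against 66 of 110 and 76 of 120 Otoa negative cells. At P7 95 of 142 and 54 of 69 did. The log2 difference at P7 exceeded that at E15 by 3.20 ± 0.27 (edgeR adjusted p = 5.33e-07). Otoa positive E15 cells were deeper than negative ones (medians of 15468 and 12464.5 UMIs, and of 12754 and 8851). The levels and cell counts in this and the next paragraph include the Oc90-rich cells, 3 of the 21 and 7 of the 23 Otoa positive E15 cells.

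Gata3 and Isl1 showed the same shape. Gata3 was at 651 and 938 CPM at P7, 58.2 and 513 CPM in E15 replicate 1 and 11.3 and 399 CPM in E15 replicate 2 in Otoa positive and negative cells (difference between ages 3.36 ± 0.34). Isl1 was at 384 and 538 CPM, 103 and 540 CPM, and 20.4 and 480 CPM (2.75 ± 0.36). Of 16 transcription factors tested, 6 differed between ages, all with a higher P7 difference, and 3 (Gata3, Isl1 and Rorb) did so without the Oc90-rich and Otos-rich cells. At least 5 Otoa UMIs were seen in 37 P7 cells and in 0 and 4 E15 cells. Those P7 cells stood at 2464 CPM of Tectb, 226.8 of Gata3 and 63.2 of Isl1. At 1 Otoa UMI, Tectb stood at 8465 CPM at P7 and at 175 and 103 CPM at E15. The part of Otoa UMIs per cell in the differences between ages was not tested.

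**Figure D4:**
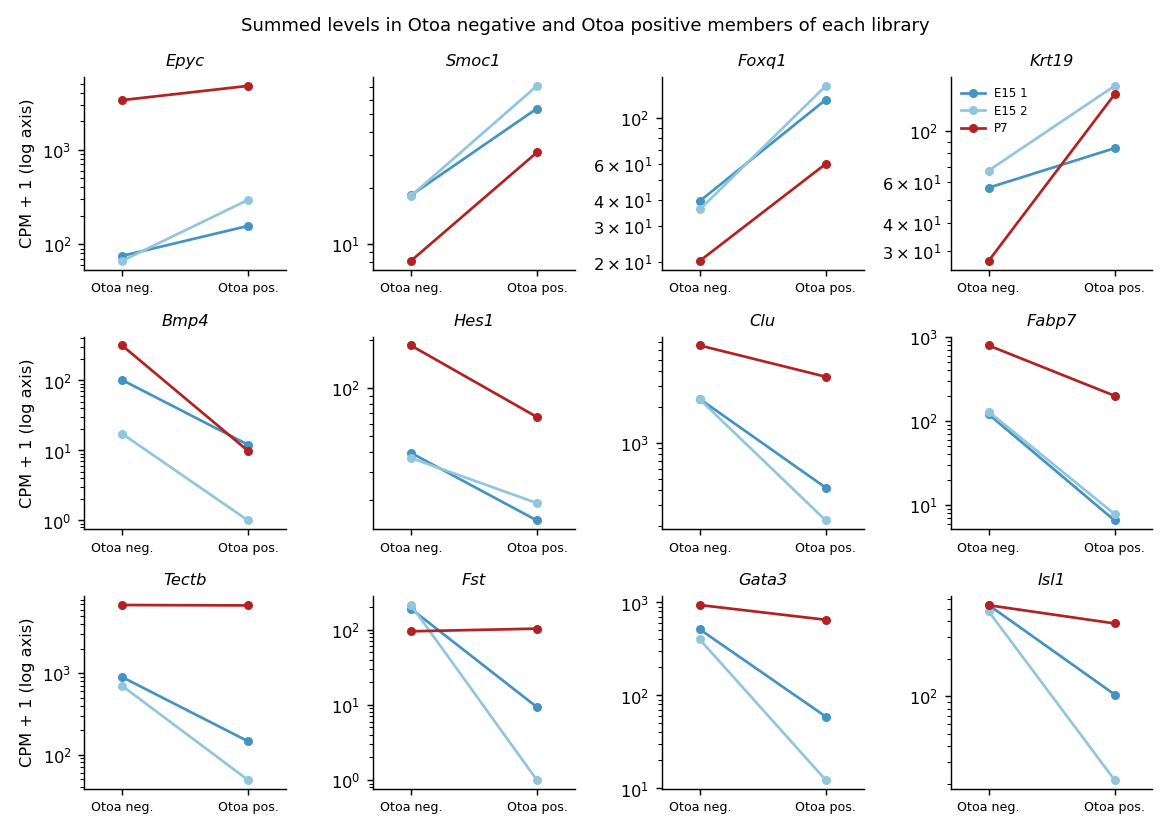
Levels in CPM plus 1 (log axis, own scale per panel) of 12 genes summed over Otoa negative and Otoa positive members; each line is 1 library (red P7, blue the E15 libraries). Epyc, Smoc1, Foxq1 and Krt19 go up and Bmp4, Hes1, Clu and Fabp7 go down in each library, while Tectb, Fst, Gata3 and Isl1 fall steeply at E15 and little or not at P7.

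Finally, the whole set was compared with the cells that the same rule found at E15, with the P7 sum as 1 sample against 2. Of 11630 genes tested by edgeR, 2198 were higher at P7 (18.9% of genes tested) and 1718 lower (14.8%) where the adjusted p was under 0.05 and the fold reached 2. With 1 residual degree of freedom, the model takes the lone P7 sum to vary like the E15 pair. Without TMM scaling, which shifted the median log2 change from 0.00 to -0.18, 1860 were higher and 2185 lower. The share of Otoa positive cells differed between the ages, so changes were also fitted in Otoa positive cells alone (1448 higher, 963 lower) and Otoa negative cells alone (1593 and 1372). Genes named below passed in both unless stated.

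In the list of ATP signalling and ion transport, of 12 members tested, 10 rose and 1 fell, with a median log2 change of 4.08 against 0.00 over all genes tested. Ano1 rose from 6.42 and 12.5 CPM in the E15 libraries to 366 CPM (5.46 ± 0.20). P2ry1 rose from 2.14 and 1.08 CPM to 55.4 CPM (5.24 ± 0.35), and P2rx2 from 4.28 and 5.96 CPM to 142 CPM (4.97 ± 0.24). Kcnj10, an inward rectifier potassium channel, rose from 0.535 and 1.08 CPM to 39.4 CPM (5.70 ± 0.44), and Kcnj16, its partner, by 3.11 ± 0.28. The chloride cotransporter gene Slc12a2 was at 64.2 and 78.6 CPM at E15 and 78.5 CPM at P7 and was not called. Panx1, a channel through which ATP can leave cells, was at 13.4 and 13.0 CPM at E15 and 3.08 CPM, or 10 UMIs, at P7 (-1.89 ± 0.49); it was not called in Otoa negative cells alone and was too low to be tested in Otoa positive ones. At P7, 7 of the 10 genes that rose were at least as high in the set as in all other P7 cells, Ano1 at 18.5 CPM and P2ry1 at 6.57 CPM in those.

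Gap junction genes changed in both directions, with 13 of 21 junction and keratin genes higher and 4 lower. Gjb6 rose from 5.35 and 5.96 CPM to 174 CPM (5.12 ± 0.22) and Gjb2 from 185 and 192 CPM to 680 CPM (2.04 ± 0.13). Gja1, connexin 43, fell from 30.5 and 32.5 CPM to 2.46 CPM (-3.46 ± 0.38). Cldn9 rose by 1.81 ± 0.13 and Cldn6, a claudin of embryonic epithelia, fell from 209 and 228 CPM to 53.6 CPM.

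Among tectorial genes 12 of 14 rose, with a median log2 change of 2.24. Epyc rose from 89.9 and 120 CPM to 4327 CPM (5.56 ± 0.17), and Tectb from 749 and 542 CPM to 6809 CPM (3.59 ± 0.17). Ceacam16, which codes for a tectorial adhesion protein, had no UMI at E15 and 28 UMIs in 6.64% of P7 members, at least 10.7-fold higher if the E15 sum is set to 3 UMIs in all. It was too low to be tested within either Otoa class. Otol1 and Otogl were lower, Otol1 at 221 and 138 CPM at E15 and 70.2 CPM at P7, and neither passed in both Otoa classes. Of the 12 genes that rose, 5 were at least as high in the set as in other P7 cells. The others included Dcn and collagens such as Col9a1: Dcn was at 1091 CPM in the set and 1965 CPM in other P7 cells. Markers of mesenchyme moved with them, 8 of 10 higher and none of these 8 above its level in other P7 cells. Their part in the collagen values was not tested.

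Thyroid hormone, which times the remodelling of the ridge, has targets and an activating enzyme among the 7 list genes tested, of which 4 rose and 0 fell (median 1.51). Klf9, a direct target, rose from 11.8 and 8.13 CPM to 274 CPM (4.97 ± 0.19), and Hr, a corepressor, from 4.81 and 1.63 CPM to 50.8 CPM (4.14 ± 0.34). Thra, the alpha receptor, rose by 1.51 ± 0.17, and Thrb, the beta receptor, was at 61.0 and 59.6 CPM at E15 and 43.7 CPM at P7 and was not called, though it was higher in Otoa positive cells alone (1.67). Dio2, which activates the hormone, had no UMI at E15 and was at least 25.2-fold higher, but stood at 20.3 CPM in the set against 113 CPM in other P7 cells, and it was too low to be tested in Otoa positive cells. Klf9 too was lower in the set than in other P7 cells (393 CPM).

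All 5 cycling markers tested fell (median -6.00), Top2a from 108 and 147 CPM to 0.616 CPM. Of 6 arrest genes, Cdkn1a (3.11 ± 0.14), Btg2 (2.59 ± 0.13) and Cdkn2d (1.47 ± 0.24) rose and Cdkn1c fell (-1.82 ± 0.15). Without the demand on Otoa, Otog and Tecta, Cdkn1c stood at 0.04, and Cdkn2d, Hes1, Hey2 and Thra were not called. In the Notch list 4 of 15 rose (3 without the Oc90-rich and Otos-rich cells) and 3 fell. Lfng, which modifies Notch receptors, rose from 16.05 and 12.5 CPM to 93.6 CPM (2.90 ± 0.22), and Hes1 rose by 1.83 ± 0.19 while Hey2 fell by 2.09 on the log2 scale, a gene too low in Otoa positive cells to be tested there. Of 16 secretory pathway genes, 2 rose, with a list median of 0.12. Hspa5, the main chaperone of the endoplasmic reticulum, was at 1060 and 1095 CPM at E15 and 1206 CPM at P7 and was not called.

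The largest rises by the naming rule were those of Tmprss9, Ucma, Sh2d6, Hamp2, Aldh1a1, Krtdap, Gldn, Abi3bp, Col4a3 and Fam25c, none of which had a UMI in E15 members. With the E15 sum set to 3 UMIs, Sh2d6 was at least 232-fold, Aldh1a1, a retinaldehyde dehydrogenase, at least 198-fold and Krtdap at least 138-fold higher. Hamp2 was too low to be tested in Otoa negative cells. Ucma, a cartilage matrix protein, was at 325 CPM in other P7 cells as well. The largest falls were those of Tac1, Fat3, Smoc2, Cdh4, Hmga2, Fgf20, Angpt1, Ccnd1, Pgf and Igf2bp1. Ccnd1, cyclin D1, fell from 877 and 645 CPM to 21.5 CPM (-4.95 ± 0.23), and Hmga2 from 548 and 468 CPM to 9.23 CPM (-5.58 ± 0.22). Smoc2, a matrix protein related to Smoc1, fell from 114 and 133 CPM to 1.85 CPM (-5.83 ± 0.32). Tac1, Fat3, Fgf20 and Angpt1 were too low in Otoa positive cells to be tested there.

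**Figure D5:**
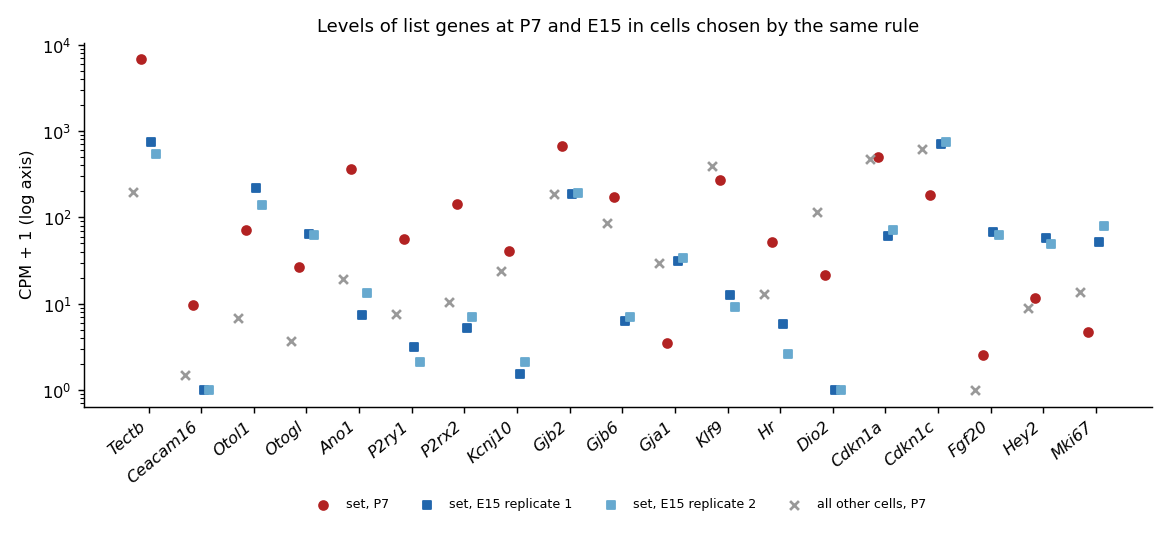
Levels in CPM plus 1 (log axis) of 19 list genes in the P7 set (red), the E15 members of each library (blue) and all other P7 cells (grey crosses). Ano1, P2ry1, P2rx2, Kcnj10 and Gjb6 lie higher at P7 than in both E15 libraries, and Gja1, Fgf20, Hey2 and Mki67 lie lower.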

How the data were processed

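Whole-cochlea libraries of 1 P7 and 2 E15 samples were analysed from the UMI count matrices the authors deposited. Per the submitters' processing notes these were made with Cell Ranger 6.1.2 on GRCm38 (mm10); per the file headers P7 was made with version 3.1.0. The members, gene lists and tests were chosen with earlier results of these data known. Cells were filtered, chosen and summed in Python 3.11.15 over genes shared by all libraries. Doublets were scored per library with scanpy 1.11.5 and kept, except in one alternative; the automatic thresholds called 7 or fewer cells a library. Members were clustered by the Leiden method (2000 variable genes, 20 components, resolution 0.6).

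Summed counts were tested with edgeR 4.0.16 in R 4.3.3 (TMM, filterByExpr, quasi-likelihood test, Benjamini-Hochberg adjustment), with DESeq2 1.42.0 as an alternative. Genes of the selection rule were left out of the tests. Values after ± are standard errors. Genes were named by rule: the 12 largest differences per direction between Otoa classes, the 10 largest per direction between ages, the 15 largest over other P7 cells, and list genes. Alternatives changed the cell filters, the rule, the scaling, the gene filter, the fold and the libraries. On simulated counts with 200 genes changed, the age test recovered 36.5% of 2-fold and 88.0% of 4-fold changes, the Otoa test 58.5% and 90.5%, and the test of the Otoa difference between ages 46.5% of 4-fold and 86.5% of 8-fold changes. Some genes that met the naming rule are not reported here.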

Additional observations from a re-analysis of the deposited data

Results flagged for a closer look

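The difference between Otoa positive and Otoa negative cells itself differed between P7 and E15, by the interaction term of edgeR's quasi-likelihood model, for the 8 genes given here, which also passed without the Oc90-rich and Otos-rich cells. The test was added after the data were seen and has 1 residual degree of freedom. Without those cells the Otoa positive E15 sums held 18 and 16 cells, under the least number of 20 set for a sum. P7 is 1 library, so the SE holds no spread between P7 libraries. Each value is the log2 difference at P7 minus that at E15 ± SE. For Tectb it was 3.20 ± 0.27, for Gata3 3.36 ± 0.34 and for Isl1 2.75 ± 0.36, with the levels given above. Otoa positive cells also differed between the ages in Otoa UMIs per cell, as given above.

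Fst, which codes for follistatin, a secreted inhibitor of activin and BMP, had a value of 5.91 ± 0.54. It was at 102 and 93.8 CPM in Otoa positive and negative cells at P7, and 17 of 142 and 10 of 69 cells carried it. At E15 it was at 8.32 and 188 CPM in replicate 1 and at 0 and 211 CPM in replicate 2, with 1 of 21 and 0 of 23 Otoa positive cells against 32 of 110 and 36 of 120 Otoa negative cells. As 1 sum held no UMI, its fitted value depends on the prior count. Rorb, an orphan nuclear receptor, had 2.64 ± 0.40, with 142 and 157 CPM at P7, 13.9 and 111 CPM in E15 replicate 1, and 13.6 and 71.3 CPM in E15 replicate 2.

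Otor, a secreted protein of cochlear fibrocytes and a mesenchymal marker here, had 5.40 ± 0.50, with 683 and 299 CPM at P7 and 5.55 and 31.8 CPM, and 2.26 and 95.5 CPM, in the E15 libraries. At P7 Otor was seen in 52.1% of Otoa positive and 68.1% of Otoa negative cells, and 1 cell held 39.1% of its UMIs in Otoa positive cells. Its log2 difference at P7 was 1.19, and 2.37 without the Oc90-rich and Otos-rich cells. The part of other cells' RNA in Otor was not tested. Pcp4 had 9.05 ± 0.99, with 116 and 1.01 CPM at P7 and, in the E15 libraries, 8.32 and 16.6 CPM, and 0 and 19.95 CPM; with 1 UMI in the Otoa negative P7 sum and 0 in the Otoa positive sum of E15 replicate 2, its fitted value depends on the prior count too. Cdkn1c, which codes for the cell cycle inhibitor p57Kip2, went the other way, at -1.80 ± 0.22: Otoa positive cells were lower at P7 (162 against 221 CPM) and higher at E15 (1536 against 500.4 CPM and 1351 against 563 CPM).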

How the results depend on the processing

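P7 is a single library, each Otoa positive E15 sum rests on few cells, and age cannot be told apart from library or software version. Genes higher at P7 in Otoa positive cells (100) came to 157 with at least 2 Otoa UMIs, 23 with the Otog and Tecta demand on both classes, 208 at 20 CPM, 181 at a fold of 1.5 and 15 within Tectb-rich cells; genes lower (68) came to 138 at 20 CPM, 143 at a fold of 1.5 and 44 without each gene's top cell. In the test over 3 libraries, 74 higher and 43 lower became 34 and 20 without Oc90-rich and Otos-rich cells, 235 and 180 with no gene filter, 25 and 14 with DESeq2, and 0 and 0 in edgeR without the library block (170 genes at an unadjusted p under 0.05). The higher count was 44 without likely doublets and 31 with the Otog and Tecta demand on both classes. Leaving out 1 library gave 55 (E15 replicate 1) to 123 (P7) higher and 34 (E15 replicate 1) to 145 (P7) lower, and 122 and 86 without E15 replicate 2. The 131 genes whose Otoa difference differed by age became 36 without Oc90-rich and Otos-rich cells and 205 without likely doublets; without an E15 library that model has no residual degrees of freedom and was not run. By age, 2198 higher and 1718 lower became 1081 and 751 with DESeq2, 1404 and 856 against a fold of 2, and 1448 and 963 in Otoa positive cells. Signs turned for Rgs5 (-1.36; 4.17 without Oc90-rich and Otos-rich cells, 2.12 without the ridge gene demand, 1.31 in Otoa negative cells); without the ridge gene demand for Col3a1 (-0.42), Itm2a (-0.50) and Cdkn1c (0.040); in Otoa negative cells for Pcp4 (-3.91); and between Otoa classes without Oc90-rich and Otos-rich cells for Mme (-0.41) and Abhd2 (-0.027). Without E15 replicate 1 or 2, Tyrp1 changed by 0.00 or -5.45 and Pmel by 2.56 or -5.18. Where not given, causes were not tested. Of the alternative values for single genes, 5701 were counted as unchanged, 682 fell short of the threshold and 137 newly passed it. Another 11, all of genes called at first, changed sign. Sign changes of genes called in neither setting are among the 5701. So are age changes without an E15 library that kept their sign, to which no threshold was applied. The Otoa comparison pairs both classes within each library through the block. No paired analysis was possible because the P7 label carries no replicate number and the ages share none, as far as the comparison of ages goes.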

Other observations

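Members also carried genes of neighbouring epithelia. The 6 markers of the outer sulcus and root list summed to 4595 CPM, of which Epyc, also in the ridge list, made up 4327 CPM. Calb1, a calcium buffer of the interdental list, was seen in 31 of 211 cells, with 1 cell at 10 or more UMIs and 114 CPM in subcluster 2. Fbxo2, a ubiquitin ligase subunit abundant in cochlear supporting cells, was at 5206 CPM in the set, 6079 CPM in supporting-type cells and 2368 CPM in Slc26a4-type cells. In subcluster 2, Hes1 stood at 1.90 CPM and Sox2, a factor of the prosensory domain, at 3.80 CPM, against 225.2 and 197.6 CPM in subcluster 1. These are values of 1 library and were not tested.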
